A study of Mus musculus with 6 samples.

Results

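S100 genes encode small calcium-binding proteins with a pair of EF-hand loops, and 10 of them were followed here in mouse bone marrow: S100a1, S100a4, S100a6, S100a8, S100a9, S100a10, S100a11, S100a13, S100a16 and S100b. They were taken by gene symbol from the deposited expression table, and the TPM (transcript abundance scaled to the same total in every library) of all transcripts carrying 1 gene identifier were summed. The 10 genes stand among 56496 genes in the table. RNA-seq was done on 6 libraries of bone marrow cells from female BALB/c mice that had carried a tumour of 4T1, a breast cancer cell line of that strain, until it was resected. The 3 Onway libraries (Onway 1, Onway 2 and Onway 3) came from mice given Onway by gavage over 2 weeks, and carry day 14 in the labels. The 3 Control libraries (Control 4, Control 5 and Control 6) came from mice that did not receive Onway, and carry day 0, so the treatment and the day in the labels cannot be told apart here. The sources used here do not give the composition of Onway, the age of the mice or whether each library came from its own mouse.

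S100 proteins mostly work as dimers that expose a binding face when calcium enters the cell, and each family member docks on its own set of target proteins. S100a8 and S100a9 form calprotectin, a heterodimer that fills the cytosol of neutrophils, starves microbes of zinc and manganese, and acts on the receptors TLR4 and RAGE once it is released. S100a4, S100a6, S100a10, S100a11 and S100a13 are made by many cell types and bind annexins, myosin and other partners at the membrane and the cytoskeleton. S100a1 is best known from heart and skeletal muscle, S100b from astrocytes, Schwann cells and cartilage, and S100a16 has been studied in adipocyte differentiation. These 3 are treated together below as stromal and tissue-restricted members.

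The upstream sequences of the members on which the comparison turns are shown first, from RefSeq on GRCm38.p6. Each runs 5′ to 3′ along the gene's own strand, with 140 bases before the RefSeq start and the first 10 bases after it. S100a8 (chr3:90668931-90669080, plus strand) and S100a9 (chr3:90695712-90695861, minus strand) are the abundant neutrophil pair. S100a4 (chr3:90603630-90603779, plus strand) is the widely expressed member with the highest fold change, and S100a16 (chr3:90537114-90537263, plus strand) is the member that fell. The last sequence is everything that lies between the S100a1 and S100a13 genes in GENCODE M21 (chr3:90514393-90514434, plus strand), because S100a1 lay lower in Onway marrow without overlap and S100a13 did not. Capitals mark TATAAA, the letters of a TATA box, and TTNNGNAA, a motif of C/EBP factors, on either strand.
S100a8: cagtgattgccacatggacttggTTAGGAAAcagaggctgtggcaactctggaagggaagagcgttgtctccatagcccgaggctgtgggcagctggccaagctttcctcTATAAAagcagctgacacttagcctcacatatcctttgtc
S100a9: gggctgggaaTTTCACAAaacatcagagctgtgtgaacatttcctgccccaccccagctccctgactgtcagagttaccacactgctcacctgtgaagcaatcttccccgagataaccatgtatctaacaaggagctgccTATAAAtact
S100a4: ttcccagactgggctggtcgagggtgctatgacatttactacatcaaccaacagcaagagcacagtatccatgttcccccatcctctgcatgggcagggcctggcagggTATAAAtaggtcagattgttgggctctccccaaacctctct
S100a16: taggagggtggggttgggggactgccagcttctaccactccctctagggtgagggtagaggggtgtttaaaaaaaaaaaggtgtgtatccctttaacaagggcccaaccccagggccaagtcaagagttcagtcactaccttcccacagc
S100a1 to S100a13: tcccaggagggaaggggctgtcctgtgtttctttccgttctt

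TATAAA began at base -30 of S100a8 and at base -31 of S100a4, counted from the RefSeq start as base 1. In S100a9 TATAAA began at base 1, at the start itself and not upstream of it. It was found in 3 of the 9 members other than S100a10, S100a4, S100a8 and S100a9, and in 13.6% of all 32851 RefSeq promoters, searched on both strands from 250 bases before to 50 bases after the start. TTNNGNAA was found in 2 of the 9 members, S100a8 at base -117 and S100a9 at bases -236 and -130, and in 40.7% of all promoters. GAGGAA, the core of PU.1 sites, was found in 4 of the 9 members (S100a4, S100a8, S100a11 and S100a16) and in 28.3% of all promoters. TGANTCA, the AP-1 motif, was found in 1 of the 9 members, S100a11, and in 7.81% of all promoters. No motif shares a base with another in the printed stretches of S100a8 and S100a9. S100a16, S100a1 and S100a13 held neither TATAAA nor TTNNGNAA in this window.

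The defining genes of bone marrow were abundant in all 6 libraries: 8 erythroid markers summed to 94852 to 340893 TPM in Onway and 117033 to 267986 TPM in Control libraries. TPM sums to 1e+06 in each library and keeps no read depth, so the depth behind the values is unknown, and 13354 to 14252 genes per library reached 1 TPM. Haemoglobin genes took 13.3%, 9.38% and 33.9% of TPM in Onway 1, Onway 2 and Onway 3, against 26.6%, 11.6% and 18.3% in Control 4, Control 5 and Control 6. Onway 3 and Control 4 therefore stand apart as the library of each group with the most haemoglobin RNA, and values without both are given below. The labels' protocol also mentions adipocyte differentiation reagents, although the samples are labelled bone marrow. The summed TPM of 6 adipocyte markers was 14.8 to 31.6 in Onway and 77.6 to 134 in Control libraries. In bulk RNA, fewer cells of a type and less RNA per cell cannot be told apart.

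The family spanned the whole range of expression in marrow. Over the 6 libraries the mean level fell in the order S100a9, S100a8, S100a11, S100a6, S100a4, S100a10, S100a1, S100a13, S100a16 and S100b, running down to 0.655 TPM for S100b, with S100a9 at 90095 TPM. TPM is scaled by transcript length, so levels of different genes can be set side by side. Each neighbour in this order held its place in 6 of 6 libraries, except S100a10 over S100a1, which held in 4 of 6 libraries with a ratio of 0.84 to 2.62. S100a9 was 2.12 to 2.53 times S100a8, and S100a8 was 15.4 to 19.3 times S100a11. Among the gaps that held throughout, S100a4 was 1.30 to 2.02 times S100a10, and S100a1 was 1.10 to 2.55 times S100a13.

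**Figure D1:**
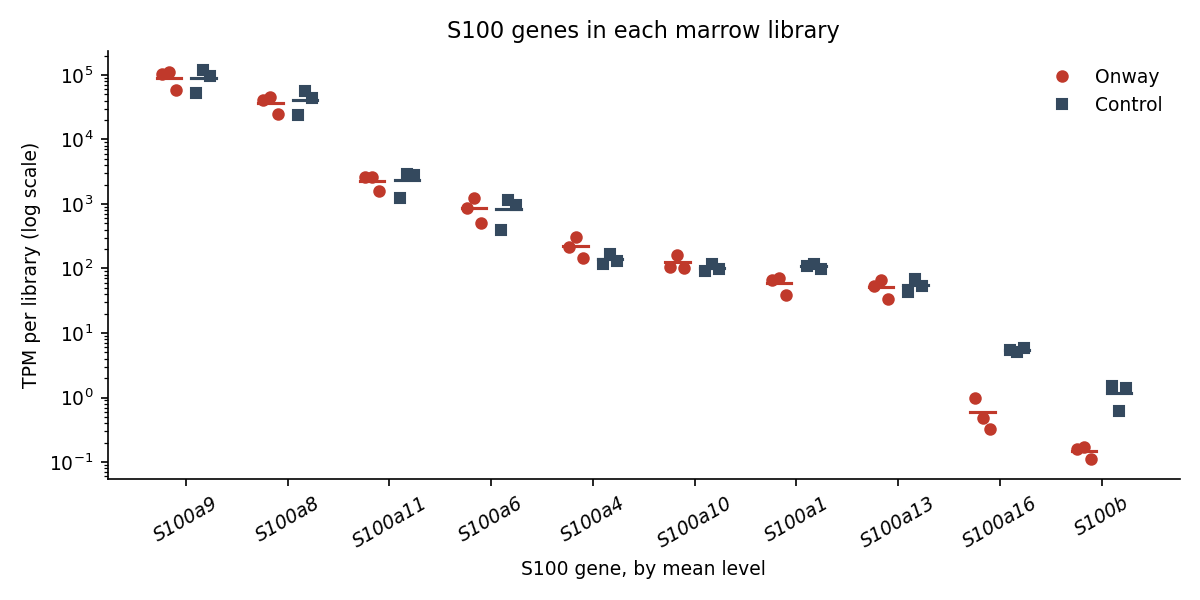
TPM of the 10 S100 genes on a log scale, ordered by mean level, with 1 point per library (circles Onway, squares Control) and a bar at each group's mean (n = 3 each). The groups overlap for 7 genes, while S100a1, S100a16 and S100b lie lower in all 3 Onway libraries than in all 3 Control libraries. Of all tested genes, 11.5% lay lower in this way.

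Of the 10 members, 9 reached a mean of 1 TPM and were tested together with all other genes, by limma on log2(TPM + 1) with Benjamini-Hochberg adjustment over 14192 genes. At an adjusted p of at most 0.05, 1 of the 9 fell in Onway marrow, S100a16, and 0 rose. Over all tested genes 424 fell (2.99%) and 33 rose (0.233%), or 3.22% in either direction. At an unadjusted p under 0.05 there were 2 members, S100a1 and S100a16, both lower, against 13.4% of all tested genes in either direction. S100a1 and S100a16 were also the 2 of 9 tested members whose Onway values all lay under all Control values, a pattern shown by 11.5% of all tested genes. None of the 9 lay higher without overlap, against 6.95% of all tested genes. The median log2 fold change was 0.03 over the 9 members and 0.03 over all tested genes.

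**Figure D2:**
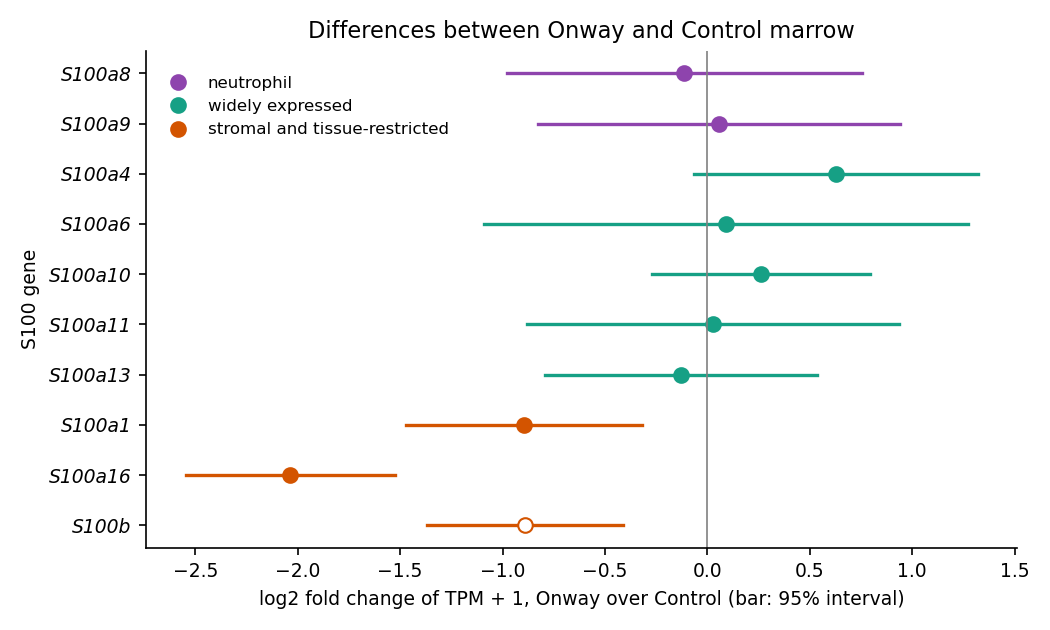
Log2 fold change of TPM + 1 in Onway over Control marrow for each S100 gene, with 95% intervals from limma (3 libraries per group), coloured by class. The intervals of the neutrophil and widely expressed genes include 0, while those of S100a16, S100a1 and S100b lie under 0. The open circle of S100b comes from the fit without a filter on low values.

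S100a8 and S100a9, the calprotectin genes of neutrophils, did not differ detectably between the groups and varied more within each group than between the group means. S100a8 (ENSMUSG00000056054, chr3:90668978-90670035, plus strand) had 41296, 45619 and 24786 TPM in the Onway libraries and 24063, 55923 and 43829 TPM in the Control libraries. S100a9 (ENSMUSG00000056071, chr3:90692632-90695721, minus strand) had 104352, 110652 and 58279.8 TPM in the Onway libraries and 52186, 118457 and 96643 TPM in the Control libraries. For both genes Onway 3 and Control 4 were the low libraries, and the groups overlapped. The log2 fold change of S100a8 was -0.11 (SE 0.37, 95% interval -0.98 to 0.75, adjusted p = 0.938, limma). That of S100a9 was 0.06 (SE 0.38, 95% interval -0.83 to 0.94, adjusted p = 0.972, limma). Without Onway 3 and Control 4 the log2 fold changes were -0.19 for S100a8 and 0.01 for S100a9.

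Together the pair made up 14.6%, 15.6% and 8.31% of all TPM in Onway 1, Onway 2 and Onway 3, and 7.62%, 17.4% and 14% in Control 4, Control 5 and Control 6. S100a9 was the most abundant gene of the table in 4 libraries and ranked 4 in Onway 3 and in Control 4. With haemoglobin genes left out, the pair took 12.6% to 17.2% of the remaining TPM in Onway and 10.4% to 19.7% in Control libraries. The 2 libraries with the highest haemoglobin share thus remained the lowest of their groups, at 12.6% in Onway 3 and 10.4% in Control 4. Of the TPM of all 10 S100 genes, the pair held 97.2% to 97.4% in Onway and 97.1% to 97.4% in Control libraries.

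The proportion of S100a9 to S100a8 was steadier than the level of either gene. It was 2.53, 2.43 and 2.35 in the Onway libraries and 2.17, 2.12 and 2.20 in the Control libraries. All 3 Onway ratios lay above all 3 Control ratios, with means of 2.44 ± 0.09 and 2.16 ± 0.04 (SD, n = 3 each). This ratio was noticed in the data and was not tested. The authors' deposited group means imply a further library in each group, and its ratio came to 2.45 for Onway and 2.43 for Control, so the separation was not seen there. Transcript use within each gene was nearly fixed: the leading transcript carried 87.0% to 87.3% of S100a9 and 98.2% to 98.7% of S100a8 over the 6 libraries.

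**Figure D3:**
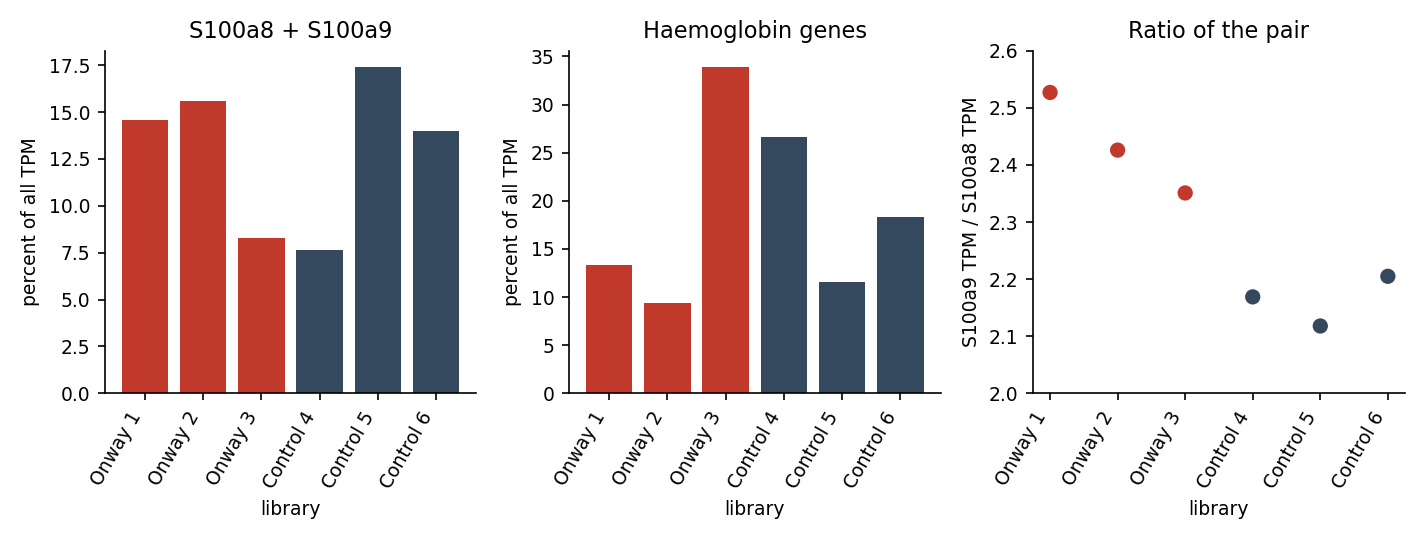
Share of all TPM taken by S100a8 and S100a9 together (left), share taken by haemoglobin genes (middle) and the ratio of S100a9 TPM to S100a8 TPM (right) in each library, Onway in red and Control in blue. The calprotectin share is lowest in Onway 3 (8.31%) and Control 4 (7.62%), where the haemoglobin share is highest, and the ratio axis runs from 2.0 to 2.6.

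Genes of the neutrophil lineage were summed by maturation stage. The summed TPM of 5 primary granule genes, made by promyelocytes, was 2116 to 4432 in Onway and 4231 to 8345 in Control libraries, and the median log2 fold change of the 5 genes was -0.91 with 0 called. Secondary granule genes (7) summed to 23177 to 40144 in Onway and 19923 to 32355 in Control libraries, with a median of 0.27 and 0 called. Mature neutrophil genes (10) summed to 7309.6 to 13039 in Onway and 5818 to 13170 in Control libraries, with a median of 0.36 and 0 called. S100a8 and S100a9 together were 11.3 to 12 times the mature sum in Onway and 12.4 to 13.2 times in Control libraries, so the Onway ratios lay lower without overlap. Against the secondary granule sum the ranges overlapped, at 3.58 to 4.67 in Onway and 3.83 to 5.39 in Control. Neither ratio was tested.

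The genes whose profiles over the 6 libraries came closest to S100a8, by the root mean square difference of centred log2(TPM + 1) among 6873 genes, were Wfdc21 (0.0327), Ly6g (0.0969) and Plscr1 (0.102). For comparison, S100a9 differed from S100a8 by 0.0915. Wfdc21 had 1533, 1603 and 925 TPM in the Onway libraries and 883, 2053 and 1555 TPM in the Control libraries. Closest to S100a9 were Bin3 (0.0634), Atxn10 (0.0685) and Ly6g (0.0740). Ly6g, the surface antigen used to identify mouse neutrophils, had 637, 711 and 398 TPM in the Onway libraries and 348, 735 and 681 TPM in the Control libraries. All 5 genes shared the low values of Onway 3 and Control 4, which follows from picking them by profile.

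The widely expressed members did not pass the test in either direction. Their median log2 fold change was 0.09 over 5 genes, of which 4 had a positive and 1 a negative value, and every one of them overlapped between the groups. Their summed level was 2380 to 4400.3 TPM in Onway and 1896 to 4465 TPM in Control libraries. Values of the neutrophil pair stood at a median of -0.03 beside them.

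S100a4, which binds non-muscle myosin and is widely used to mark fibroblasts, had the highest fold change of the family. S100a4 (ENSMUSG00000001020, chr3:90603771-90606045, plus strand) had 214, 310.1 and 144 TPM in the Onway libraries and 118, 168 and 130 TPM in the Control libraries. Onway 1 and Onway 2 lay above every Control library, while Onway 3 lay under Control 5. The means were 223 ± 83.3 TPM in Onway and 139 ± 26.3 TPM in Control marrow (SD, n = 3 each). The log2 fold change was 0.63 (SE 0.30, 95% interval -0.07 to 1.32), and the adjusted p of 0.427 by limma did not pass the threshold. Without Onway 3 and Control 4 it was 0.80 with an adjusted p of 0.172, and over all alternatives the adjusted p was 0.139 to 0.726. S100a4 shares its locus and strand with Gm42674 in GENCODE M21, so reads of that predicted gene could be counted to it. Of its 2 listed transcripts, 1 carried the whole signal.

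S100a6, or calcyclin, had 855, 1229 and 507 TPM in the Onway libraries and 399, 1164 and 948 TPM in the Control libraries. Within each group S100a6 (ENSMUSG00000001025, chr3:90612882-90624181, plus strand) was lowest in Onway 3 and Control 4, like the neutrophil pair and all widely expressed members. Its log2 fold change was 0.09 (SE 0.49, 95% interval -1.09 to 1.27, adjusted p = 0.962, limma), the widest interval of the family. It was -0.04 without those libraries. The leading transcript carried 79.2% to 89.5% of S100a6.

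S100a11, which binds annexin A1, had 2637, 2633 and 1592 TPM in the Onway libraries and 1246, 2947 and 2849.98 TPM in the Control libraries. S100a11 (ENSMUSG00000027907, chr3:93520488-93526287, plus strand) again had its low values in Onway 3 and Control 4, and the groups overlapped. The log2 fold change was 0.03 (SE 0.38, 95% interval -0.88 to 0.93, adjusted p = 0.985, limma), and -0.14 without those libraries.

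S100a10, the partner of annexin A2 in membrane complexes, varied less. S100a10 (ENSMUSG00000041959, chr3:93555080-93564643, plus strand) had 106, 163 and 104 TPM in the Onway libraries and 91.0, 118 and 96.8 TPM in the Control libraries. Only Onway 2 lay above every Control library. The log2 fold change was 0.26 (SE 0.23, 95% interval -0.27 to 0.79, adjusted p = 0.698, limma), and 0.30 without Onway 3 and Control 4.

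S100a13, which takes part in the export of FGF1, had 53.6, 65.7 and 33.4 TPM in the Onway libraries and 42.6, 68.1 and 53.3 TPM in the Control libraries. S100a13 (ENSMUSG00000042312, chr3:90514435-90524581, plus strand) overlapped between the groups. The log2 fold change was -0.13 (SE 0.29, 95% interval -0.79 to 0.54, adjusted p = 0.899, limma), and -0.02 without Onway 3 and Control 4.

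The stromal and tissue-restricted members were the ones that lay lower in Onway marrow. S100a16, S100a1 and S100b each had all 3 Onway values under all 3 Control values, and S100a16 alone passed the test. Of all tested genes, 11.5% lay lower without overlap, and S100b was not among the tested genes. The summed level of these 3 genes was 39.9 to 72.6 TPM in Onway and 106 to 123 TPM in Control libraries, most of it S100a1. The median log2 fold change of the tested S100a1 and S100a16 was -1.47. The classes hold few genes, were set with earlier results of these data known, and were not tested against each other. In the further values within the authors' deposited means, given below, S100a1 and S100b lay in the other order.

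S100a16 (ENSMUSG00000074457, chr3:90537254-90543151, plus strand) had 0.98, 0.48 and 0.32 TPM in the Onway libraries and 5.38, 5.11 and 5.85 TPM in the Control libraries. The Control libraries lay close together and every Onway library was under 1 TPM. The mean was 0.593 ± 0.344 TPM in Onway against 5.45 ± 0.374 TPM in Control marrow (SD, n = 3 each), so the Control mean was 9.18 times the Onway mean. On the log2(TPM + 1) scale, which understates the change of low genes, S100a16 fell by 2.04 (SE 0.22, 95% interval -2.55 to -1.52, adjusted p = 0.00249, limma). With a pseudocount of 0.1 in place of 1 the log2 fold change was -3.11, and with 5 it was -0.90. The gene passed the filter of 1 TPM only through its Control values. It passed the threshold in all 14 alternatives in which it was tested, with adjusted p between 0.00167 and 0.0379, the highest without Onway 3 and Control 4, where its log2 fold change was -1.92. The authors' deposited table gives group means of 0.8025 TPM for Onway and 4.62 TPM for Control, and the further value within them came to 1.43 TPM for Onway and 2.13 TPM for Control.

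Of the 8 transcripts listed for S100a16, 5 were above 0, and no transcript led in every library. ENSMUST00000098911 had 0.33, 0.00 and 0.00 TPM in the Onway libraries and 3.08, 1.68 and 4.62 TPM in the Control libraries. ENSMUST00000098910 had 0.39, 0.48 and 0.27 TPM in the Onway libraries and 2.30, 1.28 and 0.35 TPM in the Control libraries. ENSMUST00000098911 was thus lower in all Onway libraries than in all Control libraries, while ENSMUST00000098910 overlapped between the groups. The genes with the profile closest to S100a16 among 8908 genes were Cttn, the actin-binding protein cortactin (root mean square difference 0.114), Gmpr, a GMP reductase (0.123), and Ctla2a (0.150). Cttn had 5.31, 3.90 and 4.08 TPM in the Onway libraries and 22.2, 17.8 and 23.8 TPM in the Control libraries. Each of the 3 genes fell, Cttn by 2.04 (adjusted p = 0.00142), Gmpr by 1.87 (adjusted p = 0.0021) and Ctla2a by 2.06 (adjusted p = 0.00138) on the log2 scale by limma. They were picked for a profile like that of S100a16 over the same libraries. Their fall therefore follows from the choice and is no separate evidence.

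S100a1, a regulator of calcium release and uptake in muscle, was the most abundant of these 3 genes. S100a1 (ENSMUSG00000044080, chr3:90511034-90514392, minus strand) had 66.8, 72.0 and 39.5 TPM in the Onway libraries and 108, 117 and 98.9 TPM in the Control libraries. The means were 59.4 ± 17.5 TPM in Onway and 108 ± 9.02 TPM in Control marrow (SD, n = 3 each). The log2 fold change was -0.90 (SE 0.25, 95% interval -1.47 to -0.32, adjusted p = 0.14, limma), which missed the threshold. It passed when haemoglobin genes were left out (adjusted p = 0.0369) and with median-of-ratios scaling (adjusted p = 0.0473). Over all alternatives the adjusted p was 0.0369 to 0.331, and without Onway 3 and Control 4 the log2 fold change was -0.63 (adjusted p = 0.12). The further value within the authors' deposited means was 79.7 TPM for Onway and 59.2 TPM for Control, which lie in the other order.

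S100b had a mean of 0.655 TPM and was under the filter. S100b (ENSMUSG00000033208, chr10:76253853-76261159, plus strand) had 0.16, 0.17 and 0.11 TPM in the Onway libraries and 1.49, 0.61 and 1.39 TPM in the Control libraries. In the fit without a filter, its log2 fold change was -0.89 (SE 0.20, 95% interval -1.37 to -0.41) and its adjusted p of 0.116 by limma missed the threshold. The further value within the authors' deposited means was 0.55 TPM for Onway and 0.26 TPM for Control, in the other order. The gene overlaps Dip2a on the opposite strand, and the sources used here do not say whether the libraries kept the strand.

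Markers of several other cell types also lay lower in Onway libraries, and their part in the differences was not tested. Stroma markers (12) summed to 26.96 to 43.2 TPM in Onway and 370.4 to 714 TPM in Control libraries, and 10 of 11 tested fell. Skeletal muscle markers (9) summed to 16.7 to 24.4 TPM in Onway and 720.2 to 4644 TPM in Control libraries, and 8 of 9 fell. The muscle sum was 1973, 720.2 and 4644 TPM in Control 4, Control 5 and Control 6, where S100a1 had 108, 117 and 98.9 TPM. In Onway libraries S100a1 had a mean of 59.4 TPM. Whether muscle RNA had a part in the S100a1 difference was not tested. Megakaryocyte markers (9) summed to 95.7 to 154 TPM in Onway and 1927 to 2176 TPM in Control libraries, and 9 of 9 fell. The sums of these lists each separated the groups without overlap, as did 11.5% of all tested genes taken singly. Over all tested genes 2.99% fell. Endothelial markers (9) summed to 32.0 to 37.6 TPM in Onway and 82.3 to 93.4 TPM in Control libraries, and 8 of 9 fell. Bone cell markers (9) summed to 58.0 to 75.7 TPM in Onway and 710.3 to 1457 TPM in Control libraries, and 9 of 9 fell. Cartilage markers (7) summed to 0.80 to 1.55 TPM in Onway and 10.1 to 18.7 TPM in Control libraries. Both tested cartilage genes passed the filter only through Control, and their count is not given. Among the cartilage markers, Col9a1 was listed at 0 in all 6 libraries and Acan reached 0.01 TPM in Control 6 alone. Of 4 tested adipocyte markers, 1 fell. Several of the markers that fell also passed the filter only through Control: 5 of stroma, 4 of skeletal muscle, 4 of endothelium, 2 of bone cells and 1 of megakaryocytes. The counts of these lists include such markers and are not given as support. The Schwann and glia list did not follow, at 28.7 to 36.0 TPM in Onway and 20.9 to 29.6 TPM in Control libraries, and its defining gene Sox10 reached 0.01 TPM in Control 6 alone. Without Onway 3 and Control 4 together, the markers that fell were 0 of 9 for skeletal muscle, 5 of 11 for stroma, 4 of 9 for endothelium, 7 of 9 for bone cells and 9 of 9 for megakaryocytes. Leaving out single libraries, the muscle count was 5 without Onway 1 and the stroma count was 6 without Onway 2. The endothelial count was 5 without Onway 3 and 4 without Onway 2 or Control 6, and the adipocyte count was 2 without Onway 3 and 4 without Control 5.

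**Figure D4:**
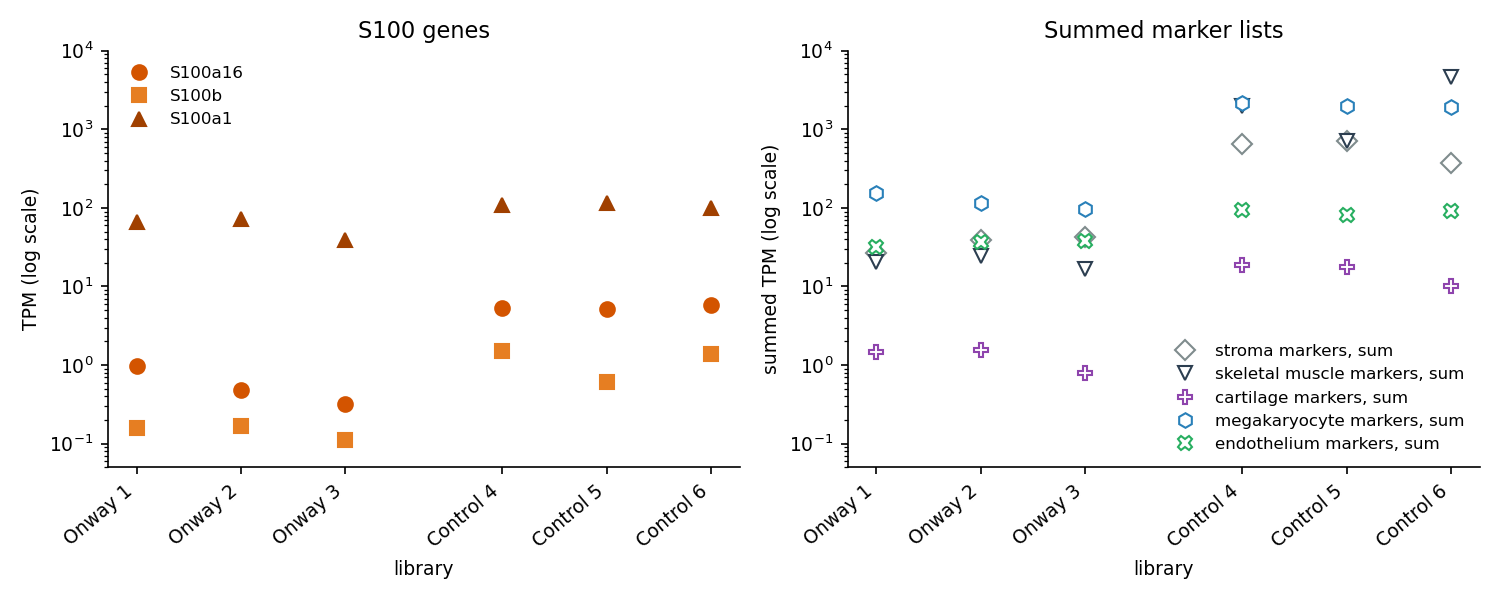
TPM of S100a16, S100b and S100a1 in each library (left) and the summed TPM of stroma, skeletal muscle, cartilage, megakaryocyte and endothelium marker lists (right), on log axes with 1 point per library. All 3 genes and all 5 sums are lower in every Onway library than in every Control library, as were 11.5% of all tested genes.

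Along chromosome 3 the members that fell or lay lower sit beside members that did not. Relative to the start of S100a8, the start of S100a1 lies at -154.59 kb, S100a13 at -154.54 kb, S100a16 at -131.72 kb, S100a4 at -65.2 kb, S100a6 at -56.1 kb and S100a9 at 26.7 kb. S100a11 and S100a10 form a second block at 2852 and 2886 kb, and S100b lies on chromosome 10. S100a1 and S100a13 point away from each other with 42 bases between their GENCODE M21 genes, the stretch shown at the top. The level of S100a1 over that of S100a13 was 1.25, 1.10 and 1.18 in the Onway libraries and 2.55, 1.72 and 1.86 in the Control libraries. All Onway ratios were lower than all Control ratios, with means of 1.17 ± 0.08 and 2.04 ± 0.44 (SD, n = 3 each), and this was not tested. In the further value of the authors' deposited means the ratio was 1.38 for Onway and 1.23 for Control.

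**Figure D5:**
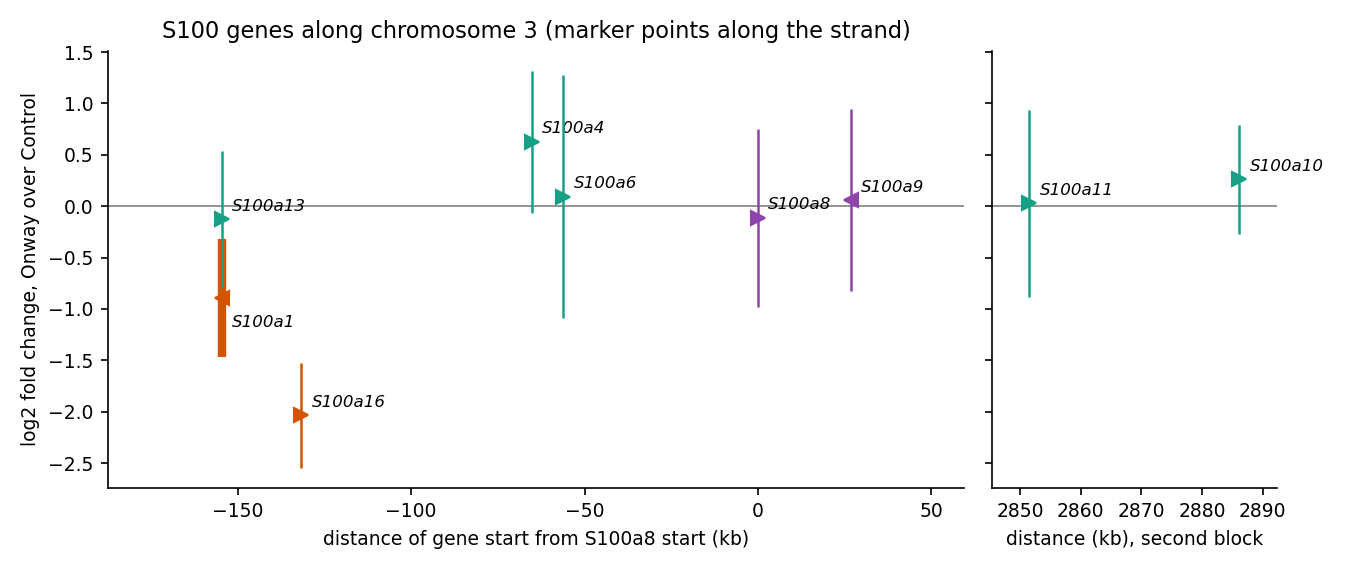
Log2 fold change in Onway over Control marrow, with 95% intervals, of the 9 S100 genes of chromosome 3 against the distance of each gene's start from that of S100a8 in kb, with arrowheads along the strand. S100a1 (thick bar, -0.90) and S100a13 (-0.13) start at nearly the same place, and S100a16 (-2.04) lies between them and S100a4 (0.63).

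The other family members were barely present in marrow. Of the other S100 genes listed for this comparison, S100a3, S100a5, S100a7a, S100a7l2, S100a14, S100g and S100z, 0 of 7 reached a mean of 1 TPM. S100a7a came nearest, at 0.963 ± 0.520 TPM in Onway and 0.820 ± 0.440 TPM in Control marrow (SD, n = 3 each). S100a5, S100a7l2, S100g and S100z were listed at 0 in all 6 libraries. S100a2, looked up after the values were seen, averaged 0.593 TPM over the 6 libraries. The fused-type genes such as filaggrin, which carry an S100 domain in skin proteins, also reached 1 TPM in 0 of 7 cases.

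Receptors and signalling genes for released S100 proteins were present but did not pass the test, with 0 of 12 called and a median log2 fold change of 0.23. Cd14, the co-receptor of TLR4, had 199, 138 and 38.3 TPM in the Onway libraries and 12.2, 39.8 and 30.6 TPM in the Control libraries. Onway 1 and Onway 2 were far above every Control library, while Onway 3 lay under Control 5. Its log2 fold change was 2.00 with an adjusted p of 0.321 by limma, and without Onway 3 and Control 4 the adjusted p was 0.0224, the lowest of its alternatives, which reached up to 0.636. Traf6, an adaptor ligase of that pathway, averaged 8.75 ± 2.34 TPM in Onway and 6.22 ± 0.661 TPM in Control marrow (adjusted p = 0.47 by limma, n = 3 each). Irak1, a kinase of the pathway, averaged 34.6 ± 3.74 TPM in Onway and 28.3 ± 2.77 TPM in Control marrow (adjusted p = 0.524 by limma, n = 3 each). Ly96, the MD-2 subunit of the TLR4 receptor, averaged 9.47 ± 3.40 TPM in Onway and 7.42 ± 0.825 TPM in Control marrow (adjusted p = 0.719 by limma, n = 3 each). The receptors themselves were chosen after their values were seen: Tlr4 averaged 9.07 ± 4.64 TPM in Onway and 7.24 ± 2.23 TPM in Control marrow, and Ager, which encodes RAGE, 5.41 ± 0.809 TPM in Onway and 5.14 ± 1.40 TPM in Control marrow (SD, n = 3 each).

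Of the intracellular partners, 14 of 15 were tested and 0 were called, with a median of 0.19. Fgf1, the growth factor exported with S100a13, averaged 0.297 ± 0.136 TPM in Onway and 1.73 ± 0.930 TPM in Control marrow (SD, n = 3 each). It passed the filter only through Control. Its log2 fold change was -1.01 with an adjusted p of 0.212 by limma, which over the alternatives lay between 0.0406 and 0.412. Anxa6, an annexin, had 41.9, 41.3 and 37.2 TPM in the Onway libraries and 29.3, 31.7 and 26.2 TPM in the Control libraries, higher in Onway without overlap (log2 fold change 0.45, adjusted p = 0.242, limma). Ahnak, a scaffold bound by S100a10 with annexin A2, averaged 10.96 ± 3.63 TPM in Onway and 6.67 ± 0.972 TPM in Control marrow (adjusted p = 0.323 by limma, n = 3 each). Iqgap1, a cytoskeletal scaffold, averaged 141 ± 45.4 TPM in Onway and 87.8 ± 15.9 TPM in Control marrow (adjusted p = 0.406 by limma, n = 3 each). Anxa2 itself, chosen after its values were seen, averaged 484 ± 160.3 TPM in Onway and 396 ± 138 TPM in Control marrow (adjusted p = 0.791 by limma, n = 3 each).

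The NADPH oxidase, whose assembly in phagocytes is helped by S100a8 and S100a9, had 0 of 6 subunit genes called, all 6 with positive log2 fold changes and a median of 0.33. Rac2 averaged 749.8 ± 205 TPM in Onway and 532 ± 120 TPM in Control marrow (adjusted p = 0.516 by limma, n = 3 each). Cybb, the catalytic subunit, averaged 294 ± 96.6 TPM in Onway and 222 ± 37.4 TPM in Control marrow (adjusted p = 0.68 by limma, n = 3 each). Ncf1 averaged 509.7 ± 174 TPM in Onway and 409 ± 86.2 TPM in Control marrow (adjusted p = 0.757 by limma, n = 3 each).

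Among 12 other small EF-hand proteins, 1 fell and 0 rose, with a median of -0.03. Tesc, or tescalcin, known for a role in megakaryocyte differentiation of human cell lines, had 9.51, 9.49 and 9.24 TPM in the Onway libraries and 25.4, 23.0 and 20.7 TPM in the Control libraries. The Onway values were nearly equal and far under every Control value. The gene fell by 1.2 on the log2 scale (SE 0.15, adjusted p = 0.00579, limma), and its adjusted p stayed at or under 0.0372 over the alternatives. The megakaryocyte markers given above moved with it, and their part was not tested. Mcfd2 averaged 25.3 ± 5.04 TPM in Onway and 33.3 ± 5.52 TPM in Control marrow (adjusted p = 0.494 by limma, n = 3 each). Efhd2, which binds actin, averaged 67.1 ± 17.3 TPM in Onway and 51.2 ± 1.59 TPM in Control marrow (adjusted p = 0.534 by limma, n = 3 each). Sri, or sorcin, averaged 265 ± 69.7 TPM in Onway and 235 ± 16.8 TPM in Control marrow (adjusted p = 0.835 by limma, n = 3 each).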

How the data were processed

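Bone marrow RNA was measured in 3 Onway and 3 Control libraries. Per the labels' protocols, RNA came from an RNeasy column kit and sequencing libraries from a SMARTer kit. The builds GRCm38 and mm10 are named in the submitters' processing notes. No aligner or quantifier is named (not given in the sources used here). Expression was deposited by the authors as TPM per transcript in 1 table (158850 transcripts, 16416 of them assembled, by their prefix), with other columns for transcript length. TPM keeps no read depth, so no counting interval is given. Onway columns carry another prefix than the titles and were matched by number. Every mean that the authors deposited can be a mean of 4 values with 2 decimals, while 69692 Onway and 71142 Control means cannot be means of 3. The further value is 4 times such a mean less the 3 libraries. It was computed after the data were seen and entered no test.

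Transcript TPM was summed to 56496 genes. The 14192 genes averaging 1 TPM or more were tested as log2(TPM + 1) with limma 3.58.1 in R 4.3.3, with a mean-variance trend and robust moderation, two-sided, on all 6 libraries with no covariate. P-values were adjusted by Benjamini-Hochberg over all of them, called at 0.05 or less, and measure the spread between these libraries. On simulated data with 50 genes changed per size, the fit over 14192 genes recovered 15 at a log2 fold of 1, 40 at 2, 45 at 3 and 47 at 4. The changed genes all had higher mean levels than S100a16 and S100b, so recovery at those low levels was not measured. Noise was drawn for each gene separately, without shifts shared by many genes of a library. Alternatives changed the pseudocount, the filter, the scaling, the transcripts, the moderation and the libraries.

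The members, classes and gene lists were chosen with earlier results of these data known. Named are all members, up to 4 tested genes with the smallest p per pathway list, summed marker lists, and the 3 genes with the nearest profile to S100a8, S100a9 and S100a16. Single values of some genes in these lists are not reported here. Profiles were compared among genes of at least 10 TPM, or 5 TPM for S100a16. Azu1 and Ahsp from the marker lists had no row under that symbol. Gene coordinates are from GENCODE M21, and promoters from RefSeq on GRCm38.p6.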

Additional observations from a re-analysis of the deposited data

Results flagged for a closer look

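Values from outside the 6 libraries were looked at for S100a4 and S100a10. The further library behind the authors' deposited Onway mean came to 217.77 TPM for S100a4, above every Control library, against 124 TPM for the further library behind the Control mean. For S100a10 it came to 130.18 TPM in Onway, again above every Control library, against 73.7 TPM in Control. Both values entered no test, and no share over all genes is given beside them. Most other members were also higher in the further Onway value than in the further Control value, S100a9 for example at 90278 against 64263 TPM. That order was therefore not particular to S100a4 and S100a10. The groups hold 3 libraries each, too few for a search for outlying samples, and the study has a single contrast.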

How the results depend on the processing

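No paired analysis was possible because the groups share no replicate numbers. S100a16 kept its call in each alternative that tested it; a filter of mean 5 TPM removed it and left 0 members called lower. Members called lower were 2 with haemoglobin genes left out and with median-of-ratios scaling, since S100a1 then passed (log2 fold change -0.89, adjusted p = 0.0369, and -0.91, adjusted p = 0.0473). Leaving out 1 library at a time gave 1 member lower and 0 higher each time. Single-library omissions gave log2 fold changes of -1.06 to -0.63 for S100a1, -2.20 to -1.91 for S100a16, 0.35 to 0.90 for S100a4 and 0.05 to 0.38 for S100a10.

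Of the uncalled members, S100a8, S100a9, S100a6, S100a11 and S100a13 changed sign, while S100a1, S100a4 and S100a10 did not. S100a8 ran from -0.46 to 0.16, positive without Control 5 (0.15) or Onway 3 (0.16). S100a9 ran from -0.29 to 0.35, negative without Control 4 (-0.29), Onway 1 (-0.07) or Onway 2 (-0.11). S100a6 ran from -0.37 to 0.43, negative without Control 4 (-0.37) or Onway 2 (-0.21). S100a11 ran from -0.38 to 0.27, negative without Control 4 (-0.38), Onway 1 (-0.10) or Onway 2 (-0.09). S100a13 ran from -0.34 to 0.14, positive without Control 5 (0.04) or Onway 3 (0.14). Without both Control 4 and Onway 3, S100a6 was at -0.035 and S100a11 at -0.14.

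Over all genes, 424 lower and 33 higher calls became 183 and 20 with a filter of mean 5 TPM, where fewer genes were tested, and 207 and 97 without Control 4 and Onway 3. Higher calls were 61 with median-of-ratios scaling. Single-library omissions gave 246 to 456 lower calls (246 without Onway 2, 254 without Onway 3) and 16 to 87 higher calls (87 without Control 4, 71 without Onway 1, 16 without Onway 2, 72 without Onway 3). The median over all genes, 0.03, was -0.06 without Onway 2, 0.11 without Onway 3 and 0.14 without Control 4 and Onway 3 together. The causes were not tested.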

Other observations

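The further library behind the authors' deposited means gave, for the members not yet described, 36912 TPM in Onway and 26411 TPM in Control for S100a8, and 90278 TPM in Onway and 64263 TPM in Control for S100a9. It gave 706 TPM in Onway and 516 TPM in Control for S100a6, 2188 TPM in Onway and 1505 TPM in Control for S100a11, and 57.8 TPM in Onway and 48.05 TPM in Control for S100a13. S100a16 was lower in the further Onway value than in the further Control value. No share over all genes is given for the order of the further values, so it is not read as a trait of the family.

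Lymphoid and monocyte markers were described by their sums. B cell markers (6) summed to 168 to 564 TPM in Onway and 121 to 188 TPM in Control libraries, with Onway 1 inside the Control range, 0 called and a median log2 fold change of 1.22. T and NK cell markers (6) summed to 17.7 to 34.8 TPM in Onway and 13.3 to 19.0 TPM in Control libraries, with 0 called. Monocyte markers (8) summed to 478 to 1128 TPM in Onway and 424 to 709 TPM in Control libraries, with 0 called and a median of 0.52.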
